A study of Homo sapiens with 8 samples.

Results

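The enzymes that make cholesterol and fatty acids, and the proteins that switch their genes on, were followed over 8 Affymetrix arrays of human multiple myeloma cells. The set was a list of 35 genes of 3 roles: 18 genes of sterol synthesis, 6 of sterol sensing and transport, and 11 of fatty acid synthesis. A gene counted as measured where at least 1 probe set carried its symbol and no other in the array annotation. That held for 32 of the 35 genes, on 70 probe sets, out of 19775 genes on the whole array. FDFT1, CYP51A1 and FADS1 had no such probe set and were not analysed here. Sterol synthesis was therefore represented by 16 genes, sterol sensing and transport by 6, and fatty acid synthesis by 10.

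RPMI-8226 and JJN3 are established lines of malignant human plasma cells. Each gave 4 arrays: uninfected cells, and cells given lentivirus with a non-targeted (NT) shRNA, with shRNA against XBP1, or with shRNA against IRE1, the product of ERN1. All were grown in IMDM with 10% serum, virus and polybrene (8 µg/mL) were left on for 16 h, and harvest was at 96 h. The labels do not say whether uninfected cells were given polybrene. The 2 lines were the replicates of a treatment, nothing in the labels describes separate cultures, and p-values measure the spread between these arrays. Names of treatments below are those of the labels. As a percentage of the NT shRNA value of the same line, XBP1 was at 65.9% (RPMI-8226) and 45.6% (JJN3) where XBP1 shRNA was the label, and at 64.7% and 16.8% where IRE1 shRNA was. ERN1 was at 36.7% (RPMI-8226) and 42.9% (JJN3) where XBP1 shRNA was the label, and at 129.8% and 53.9% where IRE1 shRNA was. The RPMI-8226 array labelled IRE1 shRNA thus had no less ERN1 than its NT shRNA array, although it was at 64.1% of uninfected cells, and the NT shRNA array itself was at 49.4% of them. The deposited values were centred, each probe set having a median of 0 over the 8 arrays, and are read here as log2 units, in which a difference of 1 is a doubling. They show how a gene differed between arrays and not how strongly it was expressed, so absence of a marker could not be checked. The median of 10 plasma cell markers ran from -0.43 to 0.11 over the RPMI-8226 arrays and from -0.35 to 0.99 over the JJN3 arrays. Those of 6 T and NK cell, 6 myeloid and 6 stromal markers stayed within -0.41 and 0.40. The plasma cell markers, XBP1 among them, had a median difference with XBP1 shRNA of -0.67 from NT shRNA and -0.74 from uninfected cells. With IRE1 shRNA it was -0.26 and -0.30. In bulk RNA, fewer cells of a kind and less RNA per cell cannot be told apart.

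Cholesterol is built from acetyl-CoA through mevalonate, isoprenoids, squalene and lanosterol, and fatty acids are built from malonyl-CoA. Both sets of genes are driven by the SREBP transcription factors, which SREBF1 and SREBF2 encode. SREBPs are made as precursors in the endoplasmic reticulum (ER) membrane. When sterol is scarce, SCAP escorts them to the Golgi, where proteases release the active factor; when sterol is plentiful, INSIG1 and INSIG2 hold SCAP back. INSIG1 is itself a target of SREBP. IRE1 is an ER stress sensor whose RNase splices XBP1 mRNA, and plasma cells use the XBP1 protein to enlarge the ER, whose membranes are made of these lipids.

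The promoters of 3 genes are shown because the main differences below turned on them: HMGCS1 and MSMO1, of the first and of a late part of the sterol pathway, and INSIG1, the brake on SREBP transport. Each sequence is the 250 bases before the start site, from RefSeq on GRCh38.p14, and is written 5′ to 3′ on the strand of the gene. Capitals mark the CCAAT box, the site of NF-Y, which works with SREBP, or its reverse ATTGG, and in INSIG1 also CACGTCA, the reverse of TGACGTG, the core of the XBP1 site. INSIG1 lies on the plus strand at chr7:155297628-155297877, HMGCS1 on the minus strand at chr5:43313413-43313662, and MSMO1 on the plus strand at chr4:165327419-165327668.
INSIG1: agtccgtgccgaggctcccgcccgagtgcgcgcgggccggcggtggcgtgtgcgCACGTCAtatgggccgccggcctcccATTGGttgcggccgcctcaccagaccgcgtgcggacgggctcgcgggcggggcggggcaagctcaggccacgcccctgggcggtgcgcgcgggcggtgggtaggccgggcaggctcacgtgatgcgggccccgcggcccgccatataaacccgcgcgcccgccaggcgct
HMGCS1: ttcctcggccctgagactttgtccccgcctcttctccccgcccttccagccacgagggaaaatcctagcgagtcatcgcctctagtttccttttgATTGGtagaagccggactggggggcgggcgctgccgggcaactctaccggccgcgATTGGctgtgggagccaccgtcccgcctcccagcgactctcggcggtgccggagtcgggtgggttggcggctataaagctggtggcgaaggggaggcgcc
MSMO1: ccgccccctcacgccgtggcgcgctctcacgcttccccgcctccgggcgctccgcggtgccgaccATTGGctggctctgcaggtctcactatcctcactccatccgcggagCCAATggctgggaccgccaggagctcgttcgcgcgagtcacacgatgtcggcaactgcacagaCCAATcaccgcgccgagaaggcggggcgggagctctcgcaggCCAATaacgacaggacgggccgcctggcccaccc
These windows held 1 CCAAT box in INSIG1, 2 in HMGCS1 and 4 in MSMO1. A second HMGCS1 window, for another start site at chr5:43313182-43313431, held 0 and is not printed. Searched on both strands, CCAAT was present in 13 of the 15 sterol synthesis genes with a RefSeq entry, 3 of 6 genes of sterol sensing and transport, and 5 of 10 fatty acid genes. Over all 27305 genes the share was 37.0%. The sterol regulatory element TCACNCCAC occurred in SREBF2, 1 of 31 entries, against 1.09% of all genes. TGACGTG occurred in INSIG1, 1 of 31, against 2.05% of all genes, and the ER stress response element, whose letters include a CCAAT box, in 0 of 31 against 0.0916%. Neither TCACNCCAC nor TGACGTG contains CCAAT. A match is a description of letters and not a measured site.

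The first comparison asked what lentivirus with NT shRNA was accompanied by in these genes. Sterol synthesis genes stood higher with NT shRNA than in uninfected cells in 15 of 16 cases, PMVK being the exception, and in both lines in 13 of 16. Their median difference was 0.32 (0.39 in RPMI-8226 and 0.20 in JJN3), where the median over all genes was 0.009. None of the 32 genes passed an adjusted p of 0.05 in limma with Benjamini-Hochberg adjustment over all genes (0, against 0% of all genes called). At an unadjusted p under 0.05 stood 8 of the 32, against 5.89% of all genes. With 2 lines the pattern is therefore a description, not a call.

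**Figure D1:**
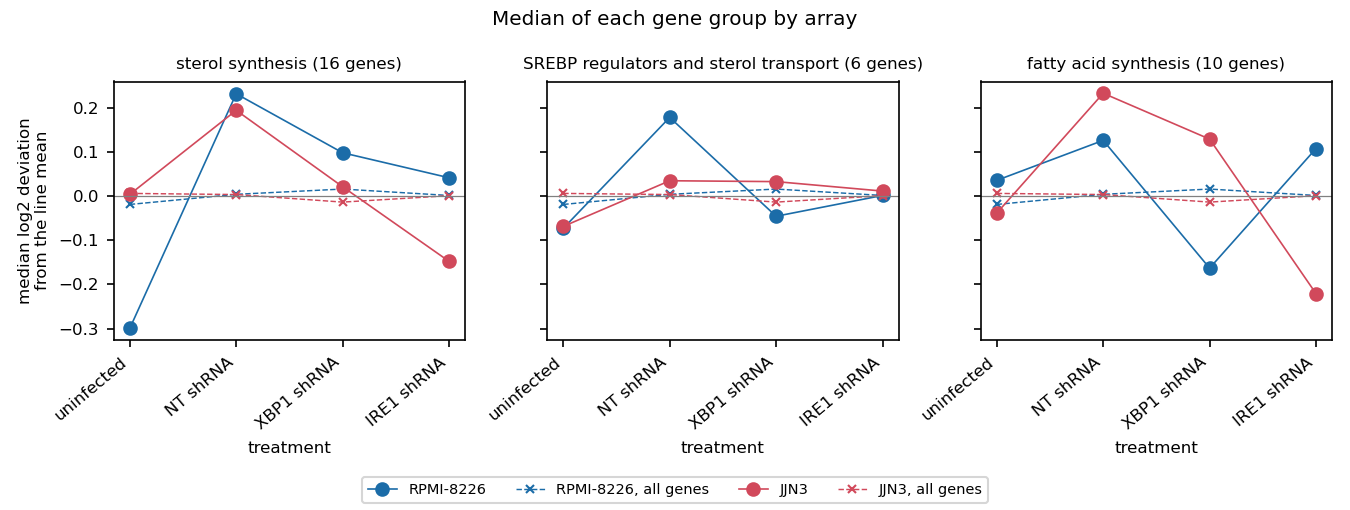
Median over the genes of each role of their log2 deviation from the mean of the 4 arrays of the same line, by treatment (circles; thin lines join arrays of a line and stand for no order in time), with the median over all genes as crosses. The sterol genes peak on the NT shRNA array in both lines, at 0.23 in RPMI-8226 and 0.19 in JJN3, while all genes stay near 0.

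On the probe set used, HMGCS1, the enzyme that makes HMG-CoA, had the largest difference of the set. In RPMI-8226 it stood at -1.57 uninfected, 0.30 after NT shRNA, -0.06 after XBP1 shRNA and -0.70 on the array labelled IRE1 shRNA. In JJN3 the same treatments gave 0.06, 0.53, 0.89 and -0.64. The uninfected RPMI-8226 array was the lowest of all 8, whereas in JJN3 the array labelled IRE1 shRNA was the lowest. NT shRNA minus uninfected was 1.17 ± 0.33 (SE, adjusted p = 0.818), being 1.87 in RPMI-8226 and 0.47 in JJN3. By size this ranked 17 among the 19775 genes. The other HMGCS1 probe set gave 0.56, with 0.60 in RPMI-8226 and 0.52 in JJN3.

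MSMO1, the C4-methylsterol oxidase that acts after lanosterol, gave -1.14, 0.07, -0.09 and -0.12 in RPMI-8226, in the order uninfected, NT, XBP1 and IRE1 shRNA. In JJN3 the order gave -0.07, 0.70, 0.51 and 0.12. In each line all 3 infected arrays stood above the uninfected one. NT shRNA minus uninfected was 0.99 ± 0.20, with 1.21 and 0.77 in the 2 lines (unadjusted p = 0.000768, adjusted p = 0.818). SC5D, the lathosterol desaturase near the end of the pathway, gave -1.22, -0.32, -0.16 and -0.86 in RPMI-8226 and 0.16, 0.51, 1.02 and 0.60 in JJN3. Its uninfected array was again the lowest of each line, and the difference was 0.62 ± 0.18 (adjusted p = 0.818). A second SC5D probe set gave -0.08.

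HSD17B7, a sterol ketone reductase, differed by 0.46 ± 0.16, and SQLE, the squalene epoxidase, by 0.50 ± 0.26 (0.78 in RPMI-8226 and 0.23 in JJN3). EBP, the sterol isomerase, differed by 0.43 and DHCR7, the reductase that yields cholesterol, by 0.41. All 4 had the same sign in both lines and none passed the test. The remaining sterol genes lay between -0.24 for PMVK, the phosphomevalonate kinase, and 0.36 for ACAT2, the thiolase of the pathway's first step. For IDI1, the isomerase of the isoprenoid step, the probe set used gave 0.04, and its other 3 probe sets gave 0.57, 0.52 and -0.24. Of the 34 sterol probe sets, 29 were positive. Without the uninfected RPMI-8226 array the sterol median was 0.13 and the HMGCS1 difference 0.56, and without the uninfected JJN3 array they were 0.52 and 1.78. The size therefore moved with which uninfected array was used, while the sign of both did not.

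Within RPMI-8226, 12 of 16 sterol genes were lowest on the uninfected array, against 27.5% of all genes, and 8 of 16 were highest on the NT shRNA array, against 26.5%. Within JJN3, 10 of 16 were highest on the NT shRNA array, against 22.6% of all genes. The lowest JJN3 array was the one labelled IRE1 shRNA for 8 of 16 and the uninfected one for 4. The lines thus shared the high NT shRNA array and differed in which array was lowest, a difference that was not tested. The actin 3' minus 5' difference, a sign of RNA quality, had its lowest value of each line with NT shRNA (-0.61 and 0.13), and its part in the result was not tested.

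**Figure D2:**
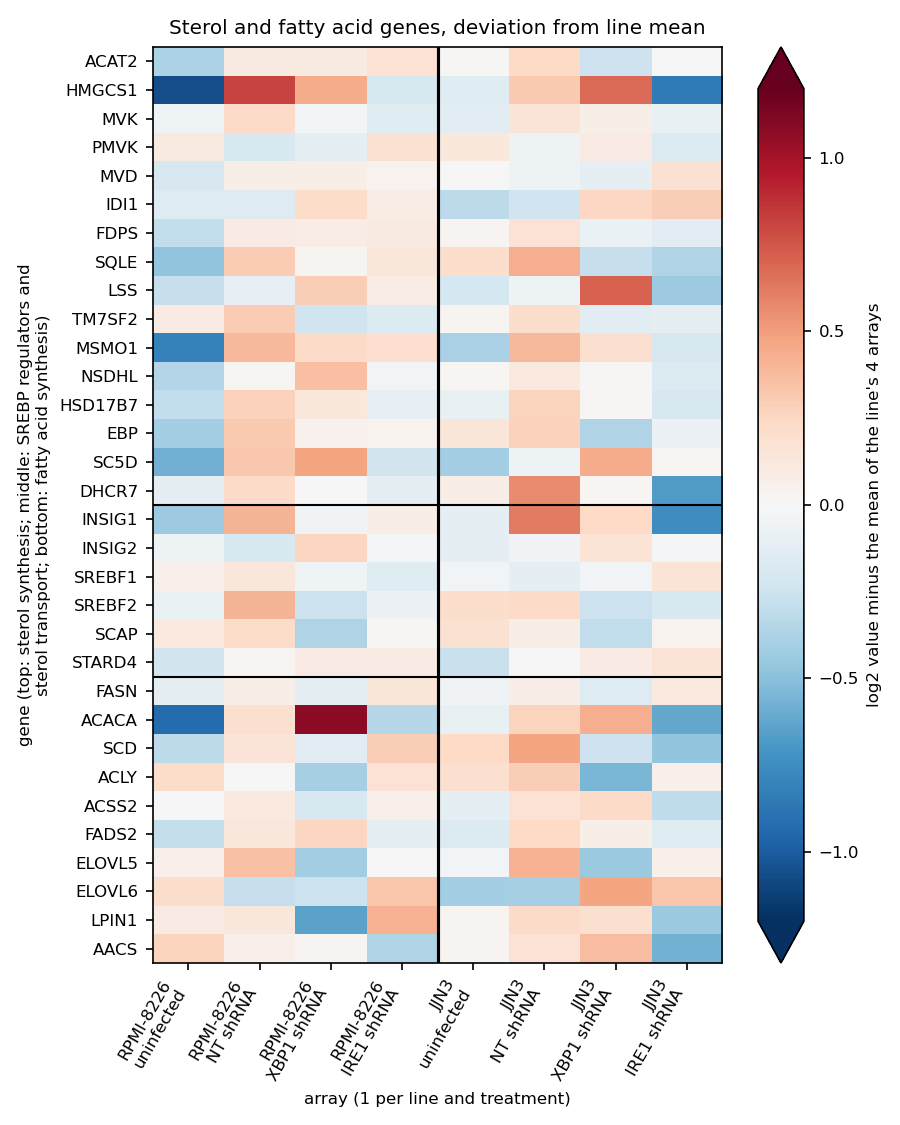
Log2 deviation of each of the 32 genes (rows, grouped by role) from the mean of the 4 arrays of the same line (columns, by line and treatment), as colour. Among the RPMI-8226 columns the uninfected one is the lowest for HMGCS1, MSMO1 and SC5D, and among the JJN3 columns the one labelled IRE1 shRNA is the lowest for INSIG1, DHCR7 and HMGCS1.

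Of the genes of sterol sensing, INSIG1 stood out in the same comparison. It gave 0.07, 0.92, 0.47 and 0.59 in RPMI-8226 and -0.82, -0.07, -0.47 and -1.44 in JJN3. NT shRNA was the highest array of each line on the probe set used. NT shRNA minus uninfected was 0.79 ± 0.27, with 0.84 and 0.75 in the 2 lines (unadjusted p = 0.0152, adjusted p = 0.818). The other INSIG1 probe sets gave 0.41 and 0.68. On that at 0.41, XBP1 shRNA was the highest array of each line, at 0.135 in RPMI-8226 and 0.123 in JJN3. NT shRNA gave 0.121 and 0.070 there. SREBF2, the SREBP that favours sterol genes, and STARD4, a carrier of cholesterol between membranes, differed by 0.25 each. SREBF1, INSIG2 and SCAP lay between -0.03 and 0.00. The median of the 6 was 0.13.

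The fatty acid median was 0.17 (RPMI-8226 0.15, JJN3 0.22), with 7 of 10 genes positive. ACACA, the acetyl-CoA carboxylase that makes malonyl-CoA, differed by 0.73 ± 0.29 (1.11 and 0.36). It was 0.18 without the uninfected RPMI-8226 array and 1.29 without that of JJN3, and the second ACACA probe set gave 0.12. FADS2, the delta-6 desaturase, and ELOVL5, an elongase of polyunsaturated fatty acids, differed by 0.42 and 0.37. The second FADS2 probe set gave 0.08, and the other ELOVL5 probe sets gave -0.11, -0.35 and 0.08. Over all 25 fatty acid probe sets the median was 0.096, with 16 positive and 9 negative. FASN, the fatty acid synthase, differed by 0.15, while its other probe set with the larger difference gave 0.57. ELOVL6, the elongase of palmitate, was the lowest at -0.24. Among the 20 genes with several probe sets, 11 had the same sign on each of them in this comparison.

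XBP1 shRNA against NT shRNA asked what targeting XBP1 changed. Of the 32 genes only ELOVL5 was called (2.2% of all genes were called, and 1.24% as lower), and it fell by 0.81 ± 0.15 in log2 units (limma, adjusted p = 0.0336). At an unadjusted p under 0.05 stood 7 of the 32, against 15.8% of all genes. It stood at 0.18, 0.47, -0.30 and 0.12 in RPMI-8226 and at -0.22, 0.24, -0.62 and -0.12 in JJN3, in the order uninfected, NT, XBP1 and IRE1 shRNA. The XBP1 shRNA array was the lowest of each line and NT shRNA the highest. The other 3 ELOVL5 probe sets gave 0.10, 0.21 and -0.26, and the mean of all its probe sets gave -0.19 (adjusted p = 0.478). Leaving out any 1 of the 8 arrays ended the call, with adjusted p from 0.0625 to 0.192, while the difference stayed between -0.86 and -0.76.

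The role medians were below 0 without further calls. The median was -0.15 for sterol synthesis (10 of 16 negative), -0.24 for sterol sensing and transport (4 of 6) and -0.17 for fatty acid synthesis (7 of 10). The median over all genes was -0.000, with 49.9% positive. Over the fits that left out 1 array these medians ran from -0.18 to -0.073, from -0.29 to -0.13 and from -0.29 to -0.026, the last being the fatty acid value without the XBP1 shRNA array of RPMI-8226. ACLY, which supplies cytosolic acetyl-CoA for both pathways, stood at 0.03, -0.20, -0.59 and -0.03 in RPMI-8226 and 0.41, 0.51, -0.33 and 0.28 in JJN3. XBP1 shRNA was its lowest array in each line, the difference was -0.62 ± 0.17 (adjusted p = 0.0984), and its 3 probe sets gave -0.67, -0.62 and -0.66.

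SREBF2 stood at -0.01, 0.49, -0.18 and 0.01 in RPMI-8226 and at 0.25, 0.26, -0.23 and -0.15 in JJN3. XBP1 shRNA again was the lowest array of each line, and the difference was -0.58 ± 0.17 (adjusted p = 0.122). Its probe sets disagreed, at -0.39, -0.58 and 0.05. SCAP stood at 0.48, 0.58, -0.00 and 0.38 in RPMI-8226 and 0.00, -0.12, -0.48 and -0.14 in JJN3, a difference of -0.47 ± 0.15 (adjusted p = 0.157). On the probe sets used, SREBF2 and its escort SCAP thus had their lowest value on the XBP1 shRNA array in each line, neither past the test. The other SREBF2 probe sets did not: in JJN3 their lowest arrays were IRE1 shRNA (-0.37) and uninfected (-0.20). Within each line singly, 26.9% of all genes in RPMI-8226 and 31.0% in JJN3 were lowest with XBP1 shRNA.

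Other differences did not pass either. TM7SF2, a sterol C14 reductase, differed by -0.45 (adjusted p = 0.177), SQLE by -0.49, EBP by -0.45, INSIG1 by -0.42, and SCD, the stearoyl-CoA desaturase, by -0.51. The other INSIG1 probe sets gave 0.03 and -0.24, so they were mixed in sign. LSS, the lanosterol synthase, was positive at 0.58 ± 0.21 (adjusted p = 0.221), while its other probe sets gave -0.03 and 0.45. HMGCS1 differed by 0.00 on average, made of -0.36 in RPMI-8226 and 0.36 in JJN3. Its other probe set gave 0.01 in RPMI-8226 and 0.11 in JJN3. ACACA differed by 0.52, with -0.06 on its second probe set.

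**Figure D3:**
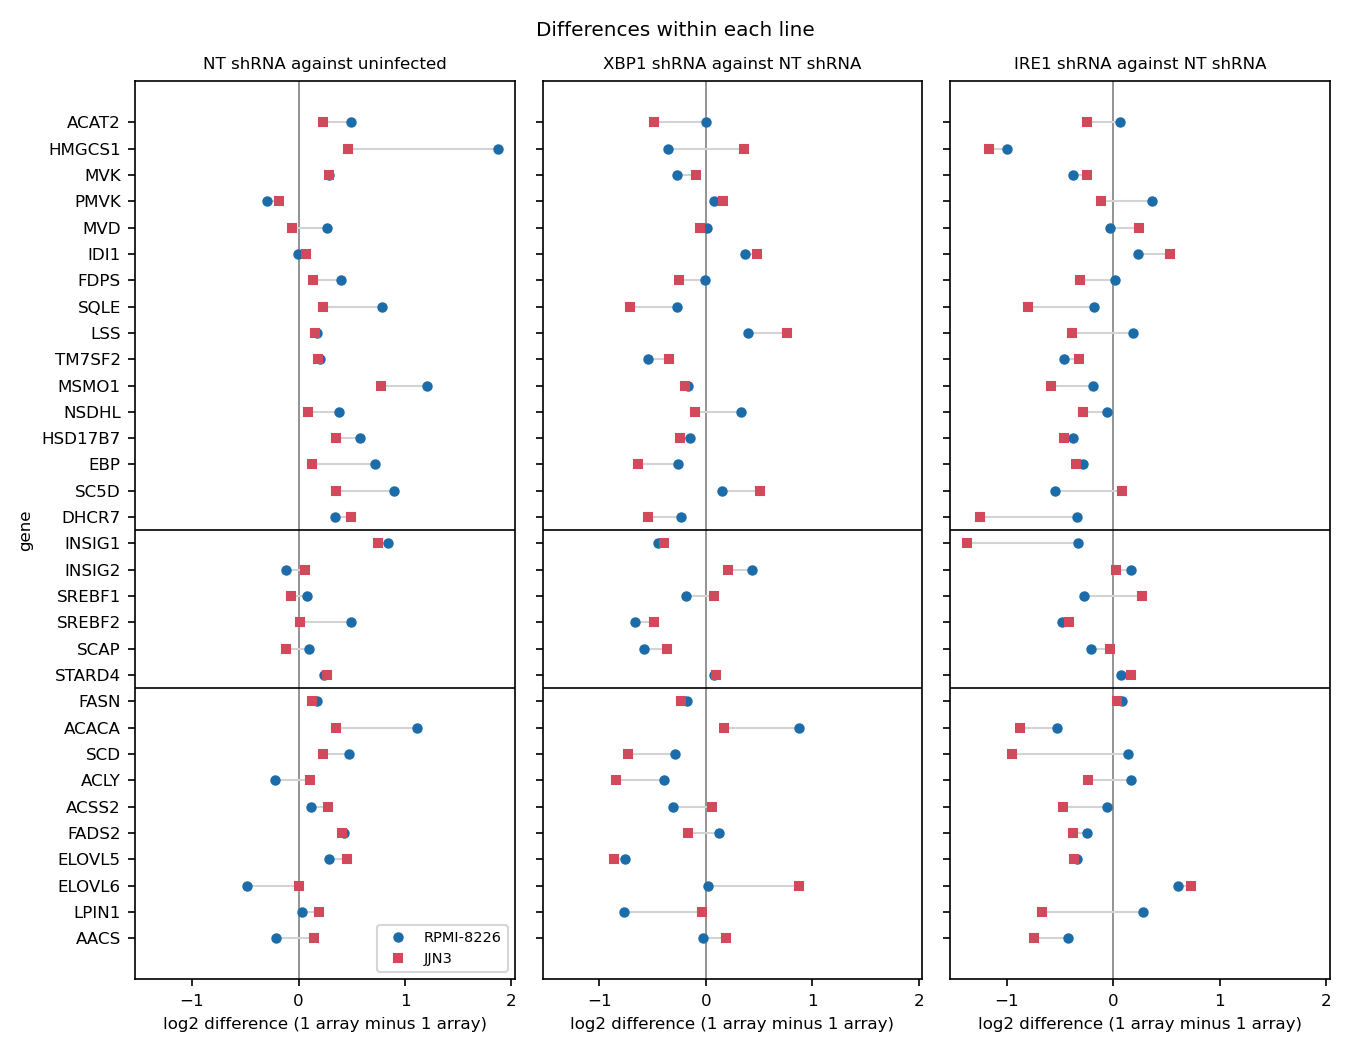
Log2 difference (horizontal axis, 1 array minus 1 array) of each of the 32 genes (rows, grouped by role) in RPMI-8226 (blue circles) and JJN3 (red squares), in 1 panel each for NT shRNA against uninfected, XBP1 shRNA against NT shRNA and IRE1 shRNA against NT shRNA. In the first panel 23 of 32 genes lie above 0 in both lines, with HMGCS1 at 1.87 and 0.47, and all panels share the NT shRNA arrays.

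Against uninfected cells, which share the XBP1 shRNA arrays with the comparison above, SC5D rose by 0.95 ± 0.18 (adjusted p = 0.0303), with 1.05 and 0.86 in the lines. It was the only gene of the set called, where 3.47% of all genes were called and 1.42% as higher, and 11 of the 32 stood at an unadjusted p under 0.05 against 17.2% of all genes. Its second probe set gave 0.27. ACACA differed by 1.26 ± 0.29 (adjusted p = 0.0535), but by 0.06 on its second probe set. MSMO1 differed by 0.81 ± 0.20 (0.0645), HMGCS1 by 1.17 ± 0.33 (0.0968) and LSS by 0.74 ± 0.21 (0.106). The other HMGCS1 probe set gave 0.62. ACLY differed by -0.68 ± 0.17 (adjusted p = 0.0645), as it did against NT shRNA. Of the other genes that were lower against NT shRNA, TM7SF2 differed here by -0.25, SQLE by 0.01, EBP by -0.02, INSIG1 by 0.38 and SCD by -0.16. The probe sets of SQLE, EBP and SCD were mixed in sign. The sterol median was 0.13 (RPMI-8226 0.44, JJN3 -0.02) and the fatty acid median -0.00. Side by side, SC5D differed by 0.62 with NT shRNA and by 0.95 with XBP1 shRNA from the same uninfected arrays.

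Which gene was called changed with the arrays in the fit, while the SC5D difference stayed between 0.84 and 1.07. Leaving out the uninfected or the XBP1 shRNA array of RPMI-8226 left 0 genes called, with SC5D at 0.84 (adjusted p = 0.246) and 0.94 (0.0925). Without the uninfected JJN3 array ACACA and HMGCS1 were called in place of SC5D, and without the XBP1 shRNA array of JJN3 ACACA was called in its place.

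For the arrays labelled IRE1 shRNA against NT shRNA, 0 of the 32 genes were called by limma, against 0.0607% of all genes. Here 11 of 32 stood at an unadjusted p under 0.05, against 10.6% of all genes. The sterol median was -0.27 (RPMI-8226 -0.18, JJN3 -0.32), with 13 of 16 genes negative, and was -0.14 without the JJN3 array labelled IRE1 shRNA. The 6 genes of sterol sensing and transport had -0.06, and fatty acid genes -0.29 (0.01 and -0.43; 8 of 10 negative). The lower median of the fatty acid genes came from JJN3: without the JJN3 array labelled IRE1 shRNA it was 0.01. That array also had a median of 0.40 over the 16 hybridisation control probe sets, where the other 7 arrays lay between -0.15 and 0.11; its part in the result was not tested.

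HMGCS1 differed by -1.08 ± 0.33 (adjusted p = 0.258), or -1.0 in RPMI-8226 and -1.17 in JJN3, and its other probe set gave -0.41. INSIG1 differed by -0.85 ± 0.27 (adjusted p = 0.276), but unevenly: RPMI-8226 gave -0.33 and JJN3 -1.37. All 3 INSIG1 probe sets were negative, at -0.85, -0.57 and -0.91. DHCR7 stood at -0.17, 0.17, -0.06 and -0.17 in RPMI-8226 and at 0.12, 0.61, 0.06 and -0.64 in JJN3. Its difference was -0.80 ± 0.22 (adjusted p = 0.220), and the JJN3 array labelled IRE1 shRNA was the lowest of the 8. Without that array the INSIG1 difference was -0.30, that of DHCR7 -0.42 and that of HMGCS1 -0.65. The 3 genes thus kept their sign at less than the full size.

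AACS, which turns acetoacetate into acetoacetyl-CoA for lipid synthesis, stood at 0.22, 0.01, -0.01 and -0.41 in RPMI-8226 and at -0.03, 0.12, 0.31 and -0.63 in JJN3. The array labelled IRE1 shRNA was the lowest of each line. It differed from NT shRNA by -0.58 ± 0.18 (adjusted p = 0.276) and from uninfected cells by -0.61 ± 0.18 (adjusted p = 0.419). ELOVL6 went the other way, with 0.65, 0.16, 0.18 and 0.77 in RPMI-8226 and -1.04, -1.04, -0.16 and -0.30 in JJN3. Its difference from NT shRNA was 0.67 ± 0.27 (adjusted p = 0.419), and its 3 probe sets gave 0.67, 0.50 and 0.60. SCD gave 0.14 in RPMI-8226 but -0.95 in JJN3, so that the mean of -0.40 describes neither line.

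Against uninfected cells, which share the arrays labelled IRE1 shRNA, 0 of 32 genes were called, as were 0.0202% of all genes, and 4 of 32 stood at an unadjusted p under 0.05 against 7.99% of all genes. The sterol median was 0.08 (RPMI-8226 0.34, JJN3 -0.16). HMGCS1 gave 0.87 in RPMI-8226 but -0.70 in JJN3, INSIG1 0.52 and -0.63, and SCD 0.61 and -0.71. Which control was used therefore set the sign in RPMI-8226 for HMGCS1 and INSIG1, whereas in JJN3 both controls gave negative values. MSMO1 was positive in the mean at 0.60 ± 0.20 (adjusted p = 0.471).

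Between the shRNAs, 0 of 32 genes were called by limma (8 at an unadjusted p under 0.05, against 15.9% of all genes), while 3.32% of all genes were called. ACACA came nearest. It stood at 0.02, 1.13, 2.01 and 0.60 in RPMI-8226 and at -0.54, -0.19, -0.02 and -1.06 in JJN3, highest with XBP1 shRNA in each line. IRE1 minus XBP1 shRNA was -1.23 ± 0.29 (adjusted p = 0.0584), while the second ACACA probe set gave 0.21. AACS differed by -0.67 (adjusted p = 0.0905), ACLY by 0.58 (0.101), HMGCS1 by -1.08 (0.121) and LSS by -0.68 (0.137). The other HMGCS1 probe set gave -0.47. Sterol, sensing and fatty acid genes had medians of -0.09, 0.04 and 0.16. ACACA was called when either uninfected array, or the JJN3 array with XBP1 shRNA, was left out of the fit.

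The lines themselves differed most. JJN3 minus RPMI-8226, over the 4 treatments of each, was called for 27 of 32 genes, 11 higher and 16 lower in JJN3, where 68.9% of all genes were called (25.4% higher and 43.5% lower). The share called is thus not particular to these genes. The 4 arrays of a line were unlike treatments of it, so these p-values measure agreement across treatments and not across separate cultures. The roles leaned different ways: the median was 0.55 for sterol synthesis, -0.64 for sterol sensing and transport and -0.43 for fatty acid synthesis, against -0.23 over all genes. The fatty acid value depended on the probe sets: over all 25 of them the median was -0.070, with 10 positive and 15 negative, and it was -0.12 with the mean of each gene's probe sets. Sterol genes were higher in 10 cases and lower in 4, sensing genes lower in 5 of 6, and fatty acid genes lower in 7 and higher in 1 of 10.

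**Figure D4:**
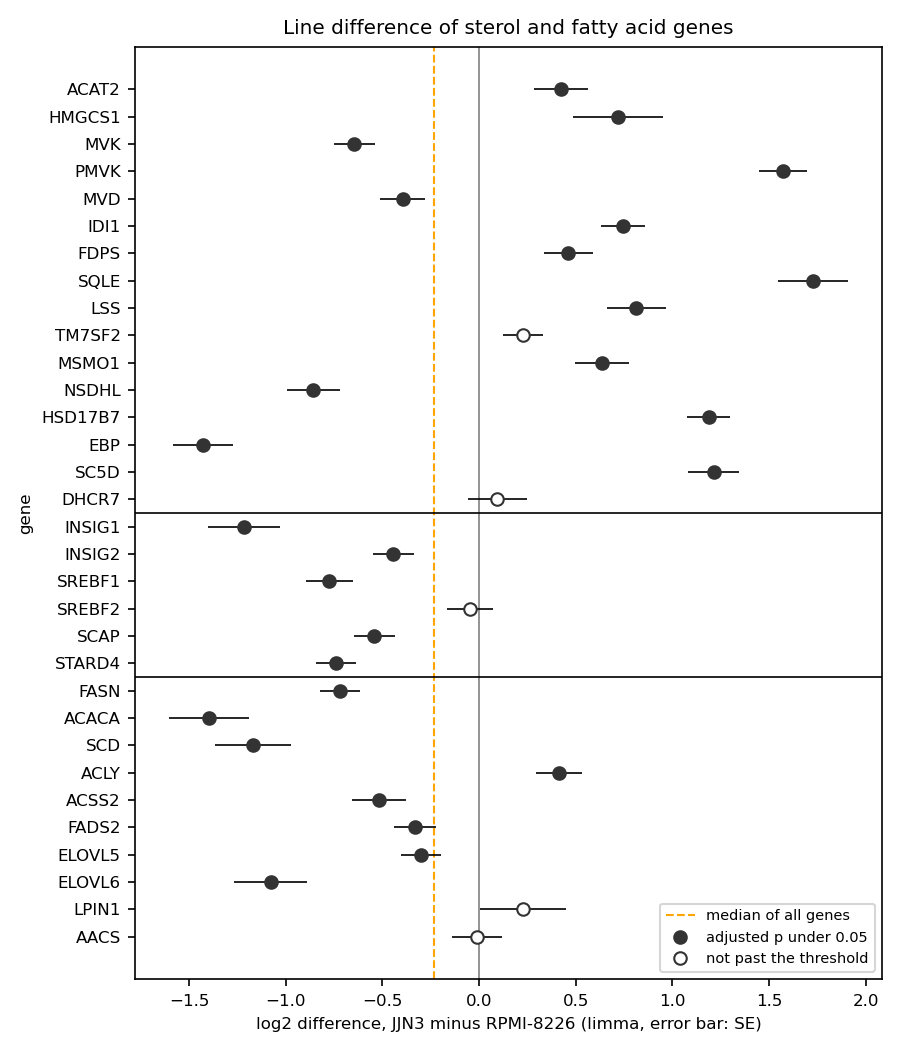
Log2 difference, JJN3 minus RPMI-8226 with its SE, for each of the 32 genes grouped by role, with filled points where the adjusted p was under 0.05; the dashed line is the median of all genes. SQLE at 1.73 and PMVK at 1.57 lie farthest to the right, and EBP at -1.43 and ACACA at -1.40 farthest to the left, although the second ACACA probe set, not drawn, gave 0.36.

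Enzymes at several steps of the sterol pathway were higher in JJN3. SQLE, given here and below in the order uninfected, NT, XBP1 and IRE1 shRNA, stood at -1.31, -0.53, -0.80 and -0.70 in RPMI-8226 and at 1.10, 1.33, 0.62 and 0.53 in JJN3. The lines did not overlap, and the difference was 1.73 ± 0.18 (adjusted p = 3.53e-05). The share of all genes whose lines did not overlap was not counted, here or for the genes below. PMVK stood at -0.68, -0.98, -0.90 and -0.61 in RPMI-8226 and at 0.91, 0.72, 0.88 and 0.61 in JJN3, without overlap and higher by 1.57 ± 0.12 (adjusted p = 5.26e-06). HSD17B7 stood at -0.93, -0.36, -0.51 and -0.74 in RPMI-8226 and at 0.47, 0.82, 0.57 and 0.36 in JJN3. It was higher by 1.19 ± 0.11, and treatments moved it less than the line did.

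LSS gave -0.61, -0.44, -0.04 and -0.25 in RPMI-8226 and 0.27, 0.42, 1.19 and 0.04 in JJN3, a difference of 0.81. IDI1 gave -0.48, -0.48, -0.11 and -0.24 in RPMI-8226 and 0.11, 0.18, 0.67 and 0.72 in JJN3, a difference of 0.74. The other 3 IDI1 probe sets gave -0.045, -0.15 and -0.17, and the mean of all 4 gave 0.095 (adjusted p = 0.311), which ends the call. On the probe sets used, in both genes the JJN3 arrays lay above the RPMI-8226 arrays, though for LSS the nearest arrays were close. FDPS, which makes farnesyl diphosphate, gave -0.52, -0.12, -0.13 and -0.11 in RPMI-8226 and 0.28, 0.42, 0.16 and 0.11 in JJN3, higher by 0.46. ACAT2 gave -0.56, -0.07, -0.07 and -0.00 in RPMI-8226 and 0.26, 0.49, 0.00 and 0.24 in JJN3, higher by 0.42 (adjusted p = 0.0232). Both genes were lowest on the uninfected RPMI-8226 array. HMGCS1 was higher by 0.72 ± 0.23 (adjusted p = 0.0209) and MSMO1 by 0.64 ± 0.14, each with lines that overlapped. The other HMGCS1 probe set gave 0.33 (limma over all probe sets, adjusted p = 0.0605). SC5D gave 1.21 on the probe set used and -0.21 on its second one, so that its probe sets disagreed in direction.

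Other enzymes of the pathway were lower in JJN3. EBP stood at 0.37, 1.09, 0.83 and 0.82 in RPMI-8226 and at -0.50, -0.37, -1.0 and -0.72 in JJN3, a difference of -1.43 ± 0.15 (adjusted p = 4.27e-05). NSDHL, a sterol dehydrogenase, stood at 0.19, 0.57, 0.90 and 0.51 in RPMI-8226 and at -0.29, -0.19, -0.30 and -0.47 in JJN3, a difference of -0.86. Neither gene overlapped between the lines. MVK, the mevalonate kinase, stood at 0.27, 0.55, 0.28 and 0.17 in RPMI-8226 and at -0.46, -0.17, -0.26 and -0.41 in JJN3, a difference of -0.64. MVD, the decarboxylase that follows PMVK, stood at 0.01, 0.27, 0.28 and 0.25 in RPMI-8226 and at -0.20, -0.25, -0.31 and -0.01 in JJN3, a difference of -0.39. PMVK thus differed in the opposite direction from MVK and MVD, the enzymes before and after it. Over all 34 sterol probe sets the median was 0.16, with 18 positive and 16 negative, so the higher median of the 16 genes depended on the probe set that stood for each gene.

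All 11 probe sets of sterol sensing and transport were negative in JJN3 minus RPMI-8226, where 34.5% of all genes were positive. INSIG1 differed by -1.22 ± 0.19 (adjusted p = 0.000425), SCAP by -0.54, and SREBF2 by -0.05 (adjusted p = 0.747). The other INSIG1 probe sets gave -0.25 and -0.35 (limma over all probe sets, adjusted p = 0.157 and 0.101). SREBF1 gave 0.43, 0.51, 0.33 and 0.23 in RPMI-8226 and -0.43, -0.51, -0.43 and -0.23 in JJN3, a difference of -0.78. The 2 SREBP genes thus differed in this respect, SREBF1 being called and SREBF2 not, a contrast that was not itself tested. The other SREBF2 probe sets gave -0.11 and -0.27 (limma over all probe sets, adjusted p = 0.464 and 0.0432). STARD4 gave 0.18, 0.42, 0.49 and 0.49 in RPMI-8226 and -0.61, -0.34, -0.25 and -0.18 in JJN3, a difference of -0.74. INSIG2 gave 0.16, 0.05, 0.49 and 0.21 in RPMI-8226 and -0.32, -0.26, -0.05 and -0.24 in JJN3, a difference of -0.44. In both genes every RPMI-8226 array lay above every JJN3 array.

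Among fatty acid genes ELOVL6 differed by -1.08 ± 0.19, with -1.06 and -1.14 on its other probe sets. ACACA differed by -1.40 ± 0.21 on the probe set used but by 0.36 on its second one, so its probe sets disagreed in direction. ELOVL5 differed by -0.30 (adjusted p = 0.0291), a call that every fit without 1 array ended (adjusted p from 0.0530 to 0.101), as did both other choices of probe set, subtracting array medians (0.101) and leaving out the block (0.213). The other ELOVL5 probe sets gave 0.078, 0.41 and -0.044. That at 0.41 passed the threshold in the opposite direction (limma over all probe sets, adjusted p = 0.0137), so the ELOVL5 probe sets disagreed. SCD stood at 0.19, 0.66, 0.37 and 0.80 in RPMI-8226 and at -0.42, -0.19, -0.92 and -1.13 in JJN3, a difference of -1.17 ± 0.20. FASN stood at 0.25, 0.42, 0.25 and 0.51 in RPMI-8226 and at -0.40, -0.28, -0.52 and -0.25 in JJN3, a difference of -0.72. For both, the lines did not overlap on these probe sets. The other FASN probe set gave 0.51, and their mean gave -0.11 (adjusted p = 0.301), so the FASN call and direction rest on 1 probe set. ACSS2, which makes acetyl-CoA from acetate, stood at 0.25, 0.36, 0.05 and 0.30 in RPMI-8226 and at -0.39, -0.11, -0.05 and -0.58 in JJN3, a difference of -0.52. FADS2 stood at -0.11, 0.32, 0.44 and 0.08 in RPMI-8226 and at -0.31, 0.09, -0.08 and -0.29 in JJN3, and its difference of -0.33 (adjusted p = 0.0240) came with lines that overlapped and with 0.071 on its second probe set. ACLY was higher in JJN3, by 0.41 ± 0.12 (adjusted p = 0.0117), with 0.099 and 0.19 on its other probe sets. LPIN1, which encodes the phosphatidate phosphatase lipin 1, AACS, DHCR7, TM7SF2 and SREBF2 were the 5 genes not called.

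Silenced arrays (XBP1 or IRE1 shRNA) against both controls called 0 of 32 genes (0% of all genes), with 5 at an unadjusted p under 0.05 against 10.1% of all genes. The sterol median was 0.01, of 0.18 in RPMI-8226 and -0.16 in JJN3. In each line both silenced arrays stood above both controls for IDI1, INSIG2 and STARD4, and below them for TM7SF2 and SCAP, or 3 and 2 of the 32 genes, where 4.55% and 4.76% of all genes did so. For IDI1 this did not hold on every probe set. On another one NT shRNA stood above both silenced arrays, at 0.25 against 0.02 and 0.09 in RPMI-8226. In JJN3 it stood at 0.11 against -0.02 and -0.20. The difference between the lines in silenced against control was called for 0 of 32 genes (0% of all genes), with 2 at an unadjusted p under 0.05 against 4.77%. They were SCD, at -0.88 ± 0.31 (unadjusted p = 0.0222), and SQLE, at -0.81 (0.0468), both with an adjusted p of 0.991.

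Neighbouring genes of lipid metabolism were counted in the same fits. In NT shRNA against uninfected limma called 0 genes on any of the 5 lists (0% of all genes). At an unadjusted p under 0.05 stood 1 to 3 genes a list, against 5.89% of all genes. For IRE1 shRNA against NT shRNA limma called 0 (0.0607% of all genes), with 1 to 5 a list at that unadjusted p, against 10.6%. With XBP1 shRNA against NT shRNA, 0 of 11 genes of SREBP processing and sterol sensing were called (3 at an unadjusted p under 0.05), against the 2.2% of all genes called, 1.24% called lower and 15.8% at that unadjusted p. Of 13 genes of sterol uptake, export and storage 1 fell, SCARB1, the HDL receptor, by 1.17 (adjusted p = 0.0322). Of 19 genes of fatty acid activation, elongation and reductant supply 2 fell: FABP5, a fatty acid carrier, by 1.35 (0.0167), and SCD5, a second stearoyl-CoA desaturase, by 1.05 (0.0221). SCD5 stood lower in both lines, at -0.95 and -1.14, whereas SCD, the enzyme of the same reaction in the set above, was not called at -0.51. With XBP1 shRNA against uninfected cells 3.47% of all genes were called, and 1.42% as higher. NFYA, a subunit of the CCAAT-binding factor, rose by 0.87 (adjusted p = 0.0358), 1 of the 11 genes of its list. NR1H3, the oxysterol receptor LXR alpha, rose by 0.70 (0.0415), 1 of 13. SCD5 fell by 1.33, FABP5 fell by 0.93 and MLX, a partner of the glucose-sensing factor ChREBP, fell by 0.81 there, 3 of 19. In IRE1 minus XBP1 shRNA, 3.32% of all genes were called. SCARB1 differed by 0.93 (adjusted p = 0.0496), 1 of 13, and NFYA by -0.85 (0.0378), 1 of 11. SCD5 differed by 0.80 (0.0390) and ME1, the NADPH-making malic enzyme, by 0.69 (0.0463), 2 of 19.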

How the data were processed

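RNA of 8 cultures was hybridised to U133 Plus 2.0 arrays. Per the submitters' processing notes, the authors deposited RMA values, taken here as log2; neither the log base nor the centring is stated in the sources used here, and percentages of a control assume base 2. Of 54675 probe sets, 41097 had 1 symbol (19775 genes), 1801 several and 11777 none. Each gene was represented by its most variable probe set (largest SD across arrays); no filter was applied. All 8 arrays entered 1 linear model of 4 treatments, blocked by cell line, in limma 3.58.1 (R 4.3.3; lmFit, eBayes, two-sided), which leaves 3 residual degrees of freedom. Silenced against control, the lines and their interaction were separate fits, and in each of them unlike treatments stand as replicates. P-values were adjusted by Benjamini-Hochberg over 19775 genes, with a threshold of 0.05. The line pairs the arrays, because same-numbered arrays come from the same line. Deviations from treatment means correlated at 0.918 or more within a line. With 2 arrays a treatment these deviations are set by the difference between the lines, so the value adds nothing to the labels. No pair of arrays was identical (0). The number of arrays limits the precision. The fit was tested on simulated data, with changes placed in the XBP1 shRNA arrays. It recovered 46 of 100 changes of 1 log2 unit and 84 of 100 changes of 2 units, with 1 false call. The members, the lists and the rule for named genes (members called in any comparison, and the 3 of each role with the largest differences in 3 of them) were chosen with earlier results of these data known. Alternatives changed the probe set, scaling, filter, block and arrays used. An alternative took the probe set of highest mean for each gene, which in centred values need not be the most strongly expressed.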

Additional observations from a re-analysis of the deposited data

Results flagged for a closer look

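SREBF1, which encodes the SREBP that favours fatty acid genes, was picked out because its silenced arrays (XBP1 or IRE1 shRNA) moved in opposite directions from the controls in the 2 lines. Silenced minus control was -0.19 in RPMI-8226 and 0.14 in JJN3. The difference between the lines, 0.33 ± 0.20, did not pass the test (limma, adjusted p = 0.991), and in JJN3 the XBP1 shRNA array lay almost level with the uninfected one. The other SREBF1 probe set gave -0.31 in RPMI-8226 and 0.08 in JJN3. There the JJN3 NT shRNA array (-0.06) stood above both silenced ones (-0.11 and -0.10), so the flag rests on the probe set used.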

How the results depend on the processing

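The count of genes called with XBP1 shRNA against NT shRNA (1 in the analysis above) was 0 with the mean of a gene's probe sets, with its highest-mean probe set and without the replicate block of the cell line, and 0 to 0 over the 8 fits that left out 1 array. Against uninfected cells it (1 above) was 0 under those 3 settings and after quantile normalisation, 2 when the less variable genes (below the median SD) were left out, and 0 to 2 over the fits without 1 array. For the arrays labelled IRE1 shRNA against XBP1 shRNA it was 0 to 1 over those fits, and for the lines 23 to 25. In all, 22 alternative counts moved and 121 stayed within 1.5 times.

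With the highest-mean probe set, the sign reversed for SC5D in NT shRNA against uninfected (-0.081) and between the lines (-0.21), for LSS (-0.028) and for SREBF2 (0.046) in XBP1 shRNA against NT shRNA. With the mean of probe sets it reversed for ELOVL5 in NT shRNA against uninfected (-0.0038) and between the lines (0.037). The ELOVL5 call had adjusted p from 0.0299 to 1.0 and the SC5D call from 0.0266 to 1.0 over all alternatives. Of the other member differences, 799 kept direction and side of the threshold and 64 kept direction only.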

Other observations

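Fatty acid oxidation and membrane lipid genes, which lie outside the synthesis set, held few calls between treatments. HADHA, the alpha subunit of the mitochondrial trifunctional protein, fell by 1.63 ± 0.18 log2 units in XBP1 shRNA against NT shRNA (limma, adjusted p = 0.00736), with -1.34 and -1.93 in the lines, 1 of 14 oxidation genes, and fell by 1.64 against uninfected cells. Between the shRNAs, IRE1 minus XBP1, HADHA differed by 1.31 and ACADM, the medium-chain acyl-CoA dehydrogenase, by -0.86 (adjusted p = 0.0115 and 0.0202). Of 21 genes of phospholipid and triglyceride synthesis 0 were called with XBP1 shRNA against NT shRNA (6 at an unadjusted p under 0.05), where 2.2% of all genes were called and 15.8% stood at that unadjusted p. In IRE1 minus XBP1 shRNA, where 3.32% of all genes were called, 2 were called, AGPAT5, an acyltransferase of the lysophosphatidate family, at 1.29, and DGAT1, which completes triglycerides, at -0.93 (adjusted p = 0.0195 and 0.0268).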
